A study of Rattus norvegicus with 9 samples.

Results

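The genes of fatty acid oxidation and ketone body formation were described in rat liver cells of 3 groups. A list of 35 genes covering mitochondrial and peroxisomal oxidation was matched by symbol to the array annotation, and 33 of them had a probe set assigned to that gene alone, of 14497 genes measured in this way. Decr2 and Acaa1a lay only on probe sets shared with another gene and were not analysed here. The first group, LAP+/OC.2+ cells of F344 rat fetuses at embryonic day 19 (OC.2+ cells below), was released from liver with collagenase and purified with antibodies to leucine aminopeptidase, a hepatic surface enzyme, and to OC.2, listed in the series design as a marker of ducts. Fetal LAP+/OC.2- cells of the same strain and day (OC.2- cells) formed the second group. The third group held hepatocytes of F344 rats aged 5 to 6 weeks, obtained by perfusion and collagenase digestion in 2 steps, and their labels mention no antibody. Each group had 3 preparations labelled as biological replicates, and each preparation was measured on 1 Affymetrix Rat ST 1.0 array. All animals had free access to food. Both fetal groups carry 1 common selection text, and a second label gives LAP-OC2+ for the OC.2+ preparations, so groups were taken from the titles. The labels do not give the number of animals per preparation, and p-values measure the spread between these preparations.

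Hepatocytes take up fatty acids, activate them to acyl-CoA esters and pass the long ones across the mitochondrial membranes bound to carnitine. A repeating spiral of dehydrogenation, hydration, a further dehydrogenation and thiolysis then shortens the chain and yields acetyl-CoA, while electron transfer flavoprotein hands electrons to the respiratory chain. Very long and branched chains are first shortened in peroxisomes. In the liver, much of the acetyl-CoA is turned into ketone bodies, a route known to gain importance after birth, when the suckling animal lives on milk fat. Many of these genes are known targets of the nuclear receptor PPAR alpha (Ppara).

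Levels are log2 of the deposited intensity, and a difference of 1 on this scale is 2-fold. Median log2 intensity per array was 6.43 to 6.49 in the fetal groups, and 6.31 to 6.34 in adult hepatocytes. Correlation of log2 intensity between arrays of 1 group was 0.986 to 0.992. The labelled cell type was checked against marker lists, with each list summed over its genes as linear intensity. The sum of 14 hepatocyte markers was 38207 to 42399 in OC.2+ cells, 103652 to 111345 in OC.2- cells and 115046 to 124464 in adult hepatocytes. The sum of 15 erythroid markers was 38272 to 39161 in OC.2+ cells, 19484 to 22449 in OC.2- cells and 1143 to 1160 in adult hepatocytes. That of 15 granulocyte markers was 20190 to 22884 in OC.2+ cells, 976 to 1074 in OC.2- cells and 842 to 871 in adult hepatocytes. Endothelial markers (8 genes) summed to 733 to 771 in OC.2+ cells, 4300 to 5911 in OC.2- cells and 855 to 1114 in adult hepatocytes. Both fetal groups thus carried albumin and other hepatocyte RNA together with erythroid RNA, and OC.2+ cells carried granulocyte RNA. Log2 intensity of the ductal keratin Krt19 was 5.85 to 6.10 in OC.2+ cells, 6.51 to 6.62 in OC.2- cells and 5.56 to 5.77 in adult hepatocytes, around or below the array medians. Of 9 measured ductal markers, 2 were lower (Krt19 and Cldn7), 2 higher (Prom1 and Muc1) and 5 not called in OC.2+ against OC.2- cells, and their sum was 794 to 800 in OC.2+ cells, 753 to 905 in OC.2- cells and 549 to 575 in adult hepatocytes. In such mixed preparations, fewer hepatocytes and less RNA per hepatocyte cannot be told apart.

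**Figure D1:**
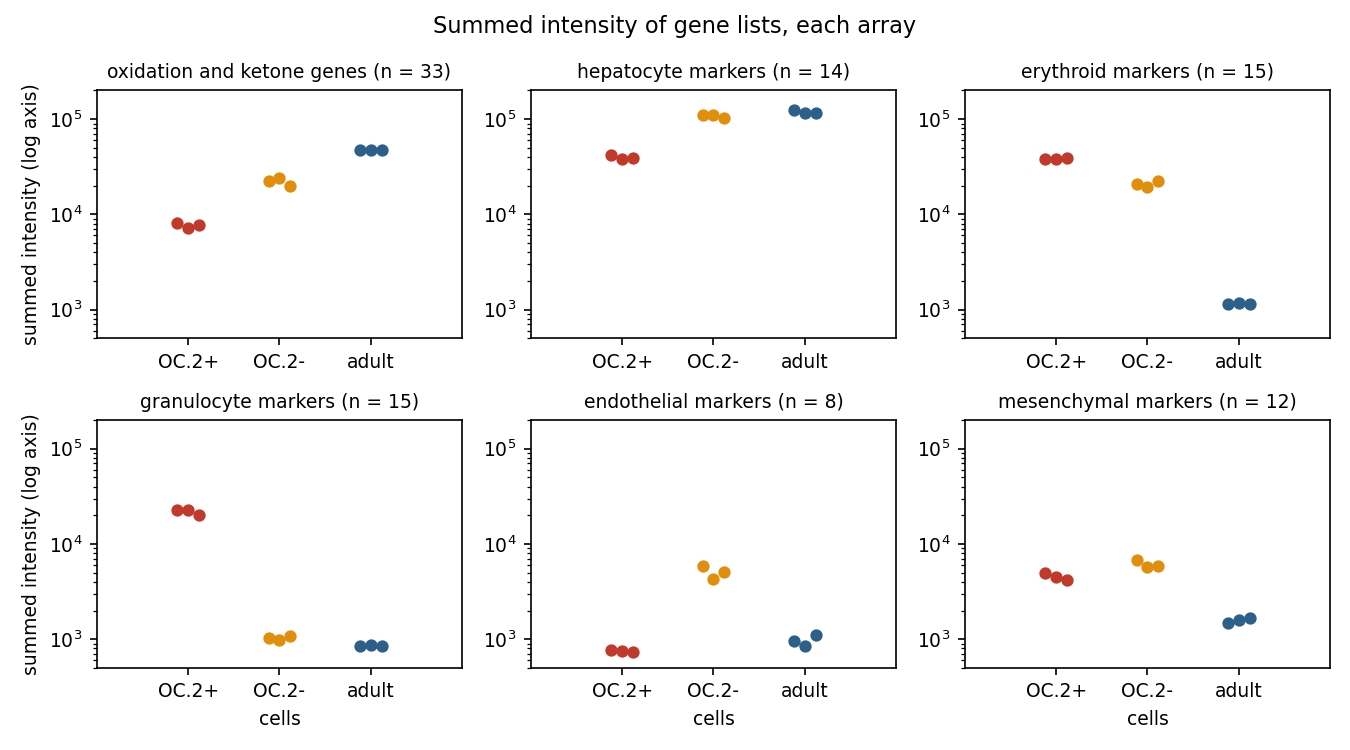
Summed linear intensity (log axis) of the 33 oxidation and ketone genes and of 5 marker lists, 1 point per array, in OC.2+ cells, OC.2- cells and adult hepatocytes. The sum of the oxidation and ketone genes was 7173 to 8119 in OC.2+ cells, 19926 to 24376 in OC.2- cells and 47044 to 47705 in adult hepatocytes, while erythroid and granulocyte sums were highest in OC.2+ cells.

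Oxidation and ketone genes were lower in OC.2+ cells than in OC.2- cells and lower in both fetal groups than in adult hepatocytes, with few exceptions. Between OC.2+ and OC.2- cells, 30 of the 33 genes were lower and 1, Crat, was higher (limma, adjusted p under 0.05 over all genes), where 18.2% of all genes tested were lower and 20.3% higher. Of the 30, 27 were lower by at least 2-fold, which held for 6.63% of all genes. Between OC.2- cells and adult hepatocytes, 29 genes were lower and 1, Decr1, was higher, against 20.9% and 23.7% of all genes. Here 16 were at least 2-fold lower, against 6.58% of all genes. Between OC.2+ cells and adult hepatocytes, 32 were lower and 0 higher, against 23.4% and 32% of all genes, and the difference was below 0 for all 33. Of these, 31 were at least 2-fold lower, against 11.1% of all genes. The exception, Crat, is given below.

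Medians of the log2 differences were -1.48 for OC.2+ against OC.2- cells, -0.93 between OC.2- and adult cells, and -2.64 for OC.2+ cells against adult hepatocytes. Medians over all genes were 0.04, 0.07 and 0.11. The 3 comparisons share arrays and are not independent of each other. Between the fetal groups the hepatocyte marker sum given above was, like these genes, lower in OC.2+ cells, while the erythroid and granulocyte sums were higher. Of 15 erythroid markers, 14 were higher in OC.2+ cells and 1, Hbe1, was lower (means of log2 10.79 in OC.2+ and 12.58 in OC.2- cells). The part of these markers in the differences was not tested. Among the 3 OC.2- arrays, replicate 3 had the lowest value for 30 of the 33 genes. The same array had the lowest hepatocyte marker sum (103652) and the highest erythroid sum (22449) of its group.

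**Figure D2:**
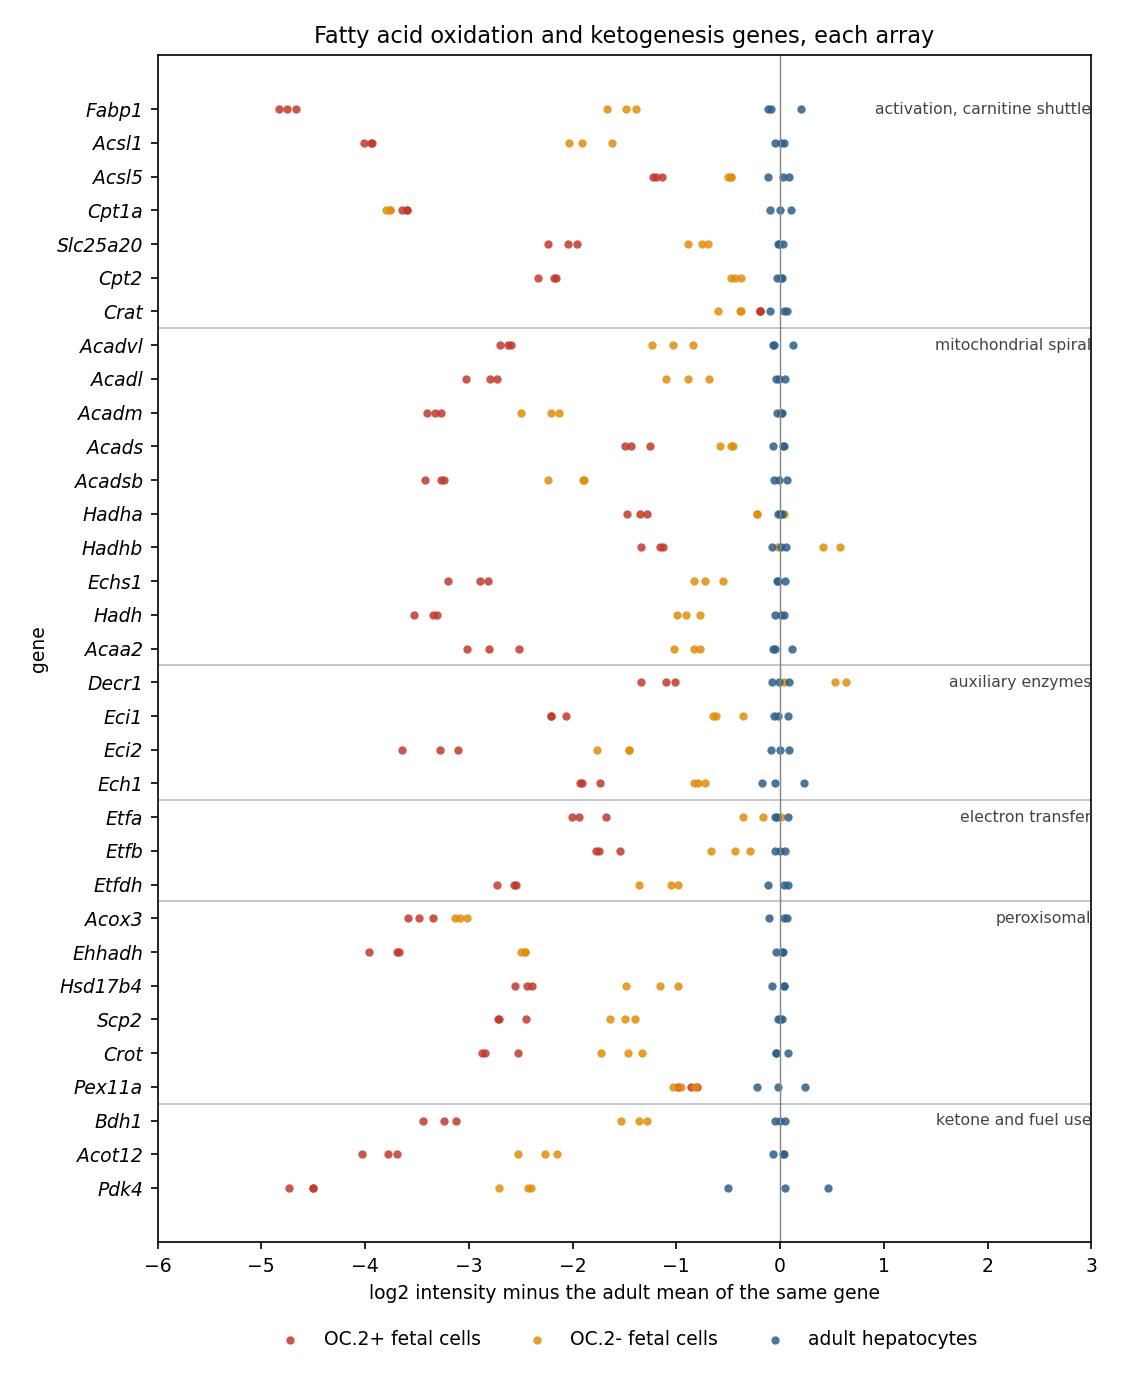
Log2 intensity of each gene on each array (points) minus the mean of the 3 adult arrays for that gene, in OC.2+ cells, OC.2- cells and adult hepatocytes, with genes ordered by role down the page. OC.2- cells lay between the other groups for most genes, Cpt1a and Pex11a were alike low in both fetal groups, and the means of Hadhb (9.55 against 9.22) and Decr1 (7.74 against 7.34) were higher in OC.2- cells than in adult hepatocytes.

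Genes of uptake, activation and the carnitine shuttle varied widely in their differences. Cpt1a, the liver carnitine palmitoyltransferase that sets the rate of entry into mitochondria, had log2 intensities of 6.747, 6.799 and 6.800 in OC.2+ cells, 6.633, 6.598 and 6.630 in OC.2- cells, and 10.493, 10.291 and 10.389 in adult hepatocytes. All 6 fetal arrays lay far below all adult arrays and just above the array medians. Cpt1a was 13.6-fold lower in OC.2- cells than in adult hepatocytes (95% interval 12.2 to 15.3, adjusted p = 8.5e-13) and 12.2-fold lower in OC.2+ cells (10.9 to 13.7, adjusted p = 4.9e-13). Between the fetal groups, OC.2+ minus OC.2- cells, it differed by 0.16 ± 0.08 (SE, adjusted p = 0.12), and the arrays of the 2 groups did not overlap. Values this close to the array medians can understate a fold, and no detection call was used here.

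Fabp1, the liver fatty acid binding protein, showed the largest difference between the fetal groups. Its log2 intensity was 6.59, 6.67 and 6.75 in OC.2+ cells, 9.93, 10.03 and 9.75 in OC.2- cells, and 11.63, 11.33 and 11.30 in adult hepatocytes. The 3 groups did not overlap, and OC.2+ cells were set apart by the wider gap. Fabp1 was 9.44-fold lower in OC.2+ cells than in OC.2- cells (95% interval 8.07 to 11.04, adjusted p = 1.5e-10). In OC.2- cells it was 2.85-fold lower than in adult hepatocytes (2.44 to 3.34, adjusted p = 8.9e-08). Acsl1, the main long-chain acyl-CoA synthetase of liver, was 4.31-fold lower in OC.2+ cells than in OC.2- cells (3.71 to 5.00) and 3.62-fold lower in OC.2- cells than in adult hepatocytes (3.12 to 4.20). Acsl5, another synthetase, changed less, with 1.63-fold lower values in OC.2+ cells than in OC.2- cells and 1.40-fold lower values in OC.2- cells than in adult hepatocytes.

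The other shuttle genes were lower in OC.2- cells than in adult hepatocytes by less than Cpt1a. Cpt2, which reforms acyl-CoA inside the mitochondrion, had log2 intensities of 7.56, 7.38 and 7.54 in OC.2+ cells, 9.28, 9.34 and 9.24 in OC.2- cells, and 9.69, 9.74 and 9.72 in adult hepatocytes. It was 3.47-fold lower in OC.2+ cells than in OC.2- cells (95% interval 3.10 to 3.89) and 1.35-fold lower in OC.2- cells than in adult hepatocytes (1.20 to 1.51, adjusted p = 0.00046), and this last call ended after quantile normalization (adjusted p = 0.080). The carnitine-acylcarnitine translocase Slc25a20 was 2.46-fold lower in OC.2+ cells than in OC.2- cells and 1.72-fold lower in OC.2- cells than in adult hepatocytes.

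Crat, the carnitine acetyltransferase that acts on short chains, was the 1 gene higher in OC.2+ cells than in OC.2- cells. Its log2 intensity was 8.39 on all 3 arrays of OC.2+ cells, 8.21, 8.20 and 7.98 in OC.2- cells, and 8.48, 8.62 and 8.64 in adult hepatocytes. The 3 OC.2+ values were identical to the last deposited digit, as for 179 genes in that group. The difference was small, 0.26 ± 0.08 (SE, adjusted p = 0.025), and it was no longer called when any 1 OC.2+ array was left out (adjusted p = 0.063 each), or when OC.2- array 3 was (0.19, adjusted p = 0.085), and after cyclic loess it was 0.17 (adjusted p = 0.109). Against adult hepatocytes Crat was 1.37-fold lower in OC.2- cells (adjusted p = 0.00066). In OC.2+ cells it differed from adult hepatocytes by -0.19 ± 0.08 (adjusted p = 0.070), a call gained when OC.2- replicate 3 was left out (adjusted p = 0.036) or without adult replicate 1 (-0.24, adjusted p = 0.045). It was also called lower with median-centred arrays (-0.33, adjusted p = 0.0076), with cyclic loess (-0.28, adjusted p = 0.0075) and with the 2 groups fitted alone (adjusted p = 0.048), but was 0.0082 after quantile normalization (adjusted p = 0.94).

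All 10 genes of the mitochondrial spiral were lower in OC.2+ cells than in OC.2- cells, 9 of them by at least 2-fold, and 8 were lower in OC.2- cells than in adult hepatocytes. Acadm, the medium-chain dehydrogenase, had log2 intensities of 7.42, 7.35 and 7.28 in OC.2+ cells, 8.47, 8.55 and 8.18 in OC.2- cells, and 10.69, 10.70 and 10.65 in adult hepatocytes. Most of its gap to adult cells was already present in OC.2- cells, where it was 4.86-fold lower than in adult hepatocytes (95% interval 4.20 to 5.61, adjusted p = 7.5e-10), against 2.07-fold lower in OC.2+ cells than in OC.2- cells (1.80 to 2.40). Acadsb, which dehydrogenates short branched chains from isoleucine breakdown, followed the same course, 4.03-fold lower in OC.2- cells than in adult hepatocytes and 2.46-fold lower in OC.2+ cells than in OC.2- cells.

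For the long-chain dehydrogenases the difference between the fetal groups was the larger one. Acadl had log2 intensities of 7.95, 7.72 and 8.01 in OC.2+ cells, 9.86, 10.06 and 9.65 in OC.2- cells, and 10.79, 10.71 and 10.73 in adult hepatocytes. It was 3.90-fold lower in OC.2+ cells than in OC.2- cells (95% interval 3.31 to 4.60) and 1.85-fold lower in OC.2- cells than in adult hepatocytes (1.57 to 2.18). For Acadvl, the very-long-chain enzyme, the folds were 3.03 (2.60 to 3.53) and 2.05 (1.76 to 2.39). Acads, the short-chain enzyme, changed least of the 4 chain-length dehydrogenases between the fetal groups, 1.86-fold lower in OC.2+ cells, and was 1.41-fold lower in OC.2- cells than in adult hepatocytes.

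Hadha and Hadhb, the 2 subunits of the trifunctional protein that completes the spiral for long chains, were not called different between OC.2- cells and adult hepatocytes. Hadhb had log2 intensities of 8.10, 7.88 and 8.06 in OC.2+ cells, 9.64, 9.80 and 9.21 in OC.2- cells, and 9.15, 9.23 and 9.28 in adult hepatocytes. OC.2- arrays 1 and 2 lay above every adult array and array 3 lay among them. OC.2- minus adult, Hadhb differed by 0.33 ± 0.13 (SE, adjusted p = 0.059), and it was called higher when OC.2- replicate 3 was left out (0.50, adjusted p = 0.0014) and after quantile normalization (0.56, adjusted p = 0.0010). It was also called higher after cyclic loess (0.30, adjusted p = 0.047) and with dim genes removed (adjusted p = 0.042). Hadha differed by -0.13 ± 0.09 (adjusted p = 0.25), with a 95% interval that crossed 0, and its direction and call depended on the scaling, since quantile normalization gave 0.11 (adjusted p = 0.27), median centring gave -0.26 (adjusted p = 0.042) and cyclic loess gave -0.29 (adjusted p = 0.011). A second probe set of Hadha gave the same direction between the fetal groups, with a difference of -0.60 against -1.24 for the probe set used. Its OC.2- minus adult difference was -0.0008. Its OC.2+ minus adult difference was -0.60 against -1.37, so it was less than 2-fold lower in both comparisons with OC.2+ cells. In OC.2+ cells both subunits were lower than in OC.2- cells, Hadhb by 2.90-fold (2.38 to 3.52) and Hadha by 2.36-fold (2.06 to 2.70).

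Echs1, Hadh and Acaa2 carry out hydration, the second dehydrogenation and thiolysis of shorter chains. Hadh had log2 intensities of 8.14, 7.92 and 8.10 in OC.2+ cells, 10.54, 10.67 and 10.46 in OC.2- cells, and 11.40, 11.46 and 11.48 in adult hepatocytes. No array of OC.2+ cells came within 2 log2 units of an array of OC.2- cells. Between these groups Hadh was 5.67-fold lower (95% interval 4.97 to 6.46, adjusted p = 2.2e-10), Echs1 4.82-fold lower (4.10 to 5.67) and Acaa2 3.74-fold lower (3.13 to 4.48). In OC.2- cells the 3 genes were 1.85-fold, 1.63-fold and 1.83-fold lower than in adult hepatocytes.

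Unsaturated chains need auxiliary enzymes, and all 4 of these were at least 2-fold lower in OC.2+ cells than in OC.2- cells. Decr1, the mitochondrial dienoyl-CoA reductase, was the 1 gene called higher in OC.2- cells than in adult hepatocytes. Its log2 intensity was 6.24, 6.00 and 6.33 in OC.2+ cells, 7.87, 7.97 and 7.37 in OC.2- cells, and 7.32, 7.26 and 7.42 in adult hepatocytes. The OC.2- and adult arrays overlapped, with OC.2- replicate 3 inside the adult range. OC.2- minus adult, the difference was 0.40 ± 0.14 (SE, adjusted p = 0.034), and the call was lost when 1 of 4 arrays was left out, namely OC.2- array 1 (0.34, adjusted p = 0.116) or 2 (0.28, adjusted p = 0.136), or adult array 1 (0.39, adjusted p = 0.080) or 2 (0.36, adjusted p = 0.092). After median centring the difference was 0.27 (adjusted p = 0.166). OC.2+ cells lay below both other groups, 2.93-fold below OC.2- cells (95% interval 2.37 to 3.62). The isomerases Eci1, Eci2 and Ech1 were 3.08-fold, 3.43-fold and 2.11-fold lower in OC.2+ cells than in OC.2- cells, and 1.45-fold, 2.95-fold and 1.72-fold lower in OC.2- cells than in adult hepatocytes.

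Electron transfer flavoprotein takes the electrons of every acyl-CoA dehydrogenase. Its alpha subunit gene Etfa had log2 intensities of 9.29, 8.96 and 9.03 in OC.2+ cells, 10.80, 10.98 and 10.61 in OC.2- cells, and 11.04, 10.92 and 10.94 in adult hepatocytes. The OC.2- and adult arrays overlapped, and their difference was -0.17 ± 0.11 (SE, adjusted p = 0.23). It was 0.025 after quantile normalization (adjusted p = 0.86) and -0.35, called lower, after cyclic loess (adjusted p = 0.0088). Etfa was 3.25-fold lower in OC.2+ cells than in OC.2- cells (95% interval 2.76 to 3.84, adjusted p = 4.6e-08). Etfb, the beta subunit, was 2.33-fold lower in OC.2+ cells than in OC.2- cells and 1.38-fold lower in OC.2- cells than in adult hepatocytes. Etfdh, which passes the electrons to ubiquinone, was 2.79-fold and 2.19-fold lower in the same comparisons.

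**Figure D3:**
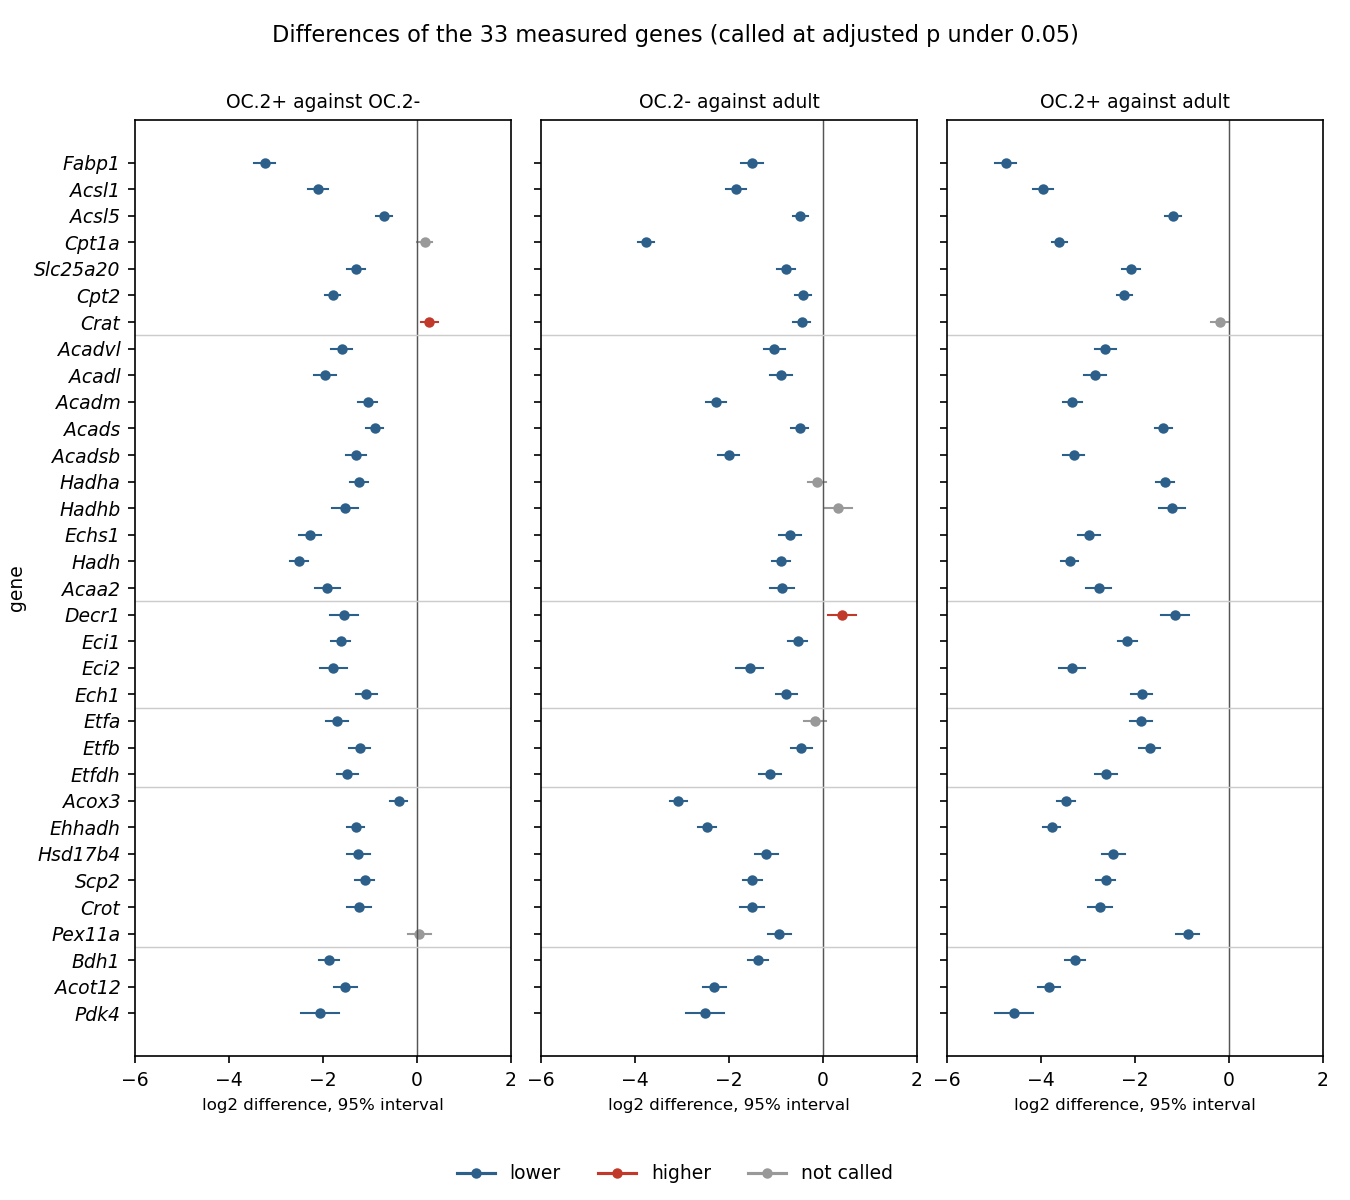
Log2 difference of each of the 33 measured genes with its 95% interval from limma, for OC.2+ against OC.2- cells, OC.2- cells against adult hepatocytes and OC.2+ cells against adult hepatocytes, coloured by the call at adjusted p under 0.05. Intervals lay left of 0 for all genes called lower. Cpt1a (0.16) and Acox3 (-0.39) were near 0 between the fetal groups and beyond -3 against adult hepatocytes. Hadha, Hadhb and Etfa were called lower in both comparisons with OC.2+ cells and not called in OC.2- against adult. In OC.2- against adult, Hadha and Etfa turned positive after quantile normalization and were called lower after cyclic loess, and Hadhb was called higher after each of these scalings.

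Of the 6 measured peroxisomal genes, all were lower in OC.2- cells than in adult hepatocytes, 5 of them at least 2-fold, and 5 were lower in OC.2+ cells than in OC.2- cells. Acox3, an oxidase of branched acyl-CoA, had log2 intensities of 7.63, 7.49 and 7.39 in OC.2+ cells, 7.89, 7.96 and 7.84 in OC.2- cells, and 11.01, 10.87 and 11.04 in adult hepatocytes. As with Cpt1a, the adult arrays stood far above both fetal groups. Acox3 was 8.45-fold lower in OC.2- cells than in adult hepatocytes (95% interval 7.42 to 9.61, adjusted p = 1.7e-11), and 1.31-fold lower in OC.2+ cells than in OC.2- cells (1.15 to 1.49, adjusted p = 0.0024). Ehhadh, the L-bifunctional enzyme, was 5.54-fold lower in OC.2- cells than in adult hepatocytes (4.86 to 6.30) and 2.47-fold lower in OC.2+ cells than in OC.2- cells (2.17 to 2.81).

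Hsd17b4, the D-bifunctional enzyme, Scp2, which holds the thiolase for branched chains, and Crot, which exports shortened chains as carnitine esters, stepped down nearly evenly. They were 2.38-fold, 2.17-fold and 2.36-fold lower in OC.2+ cells than in OC.2- cells, and 2.31-fold, 2.84-fold and 2.84-fold lower in OC.2- cells than in adult hepatocytes. Pex11a, which acts in peroxisome division, had log2 intensities of 6.70, 6.88 and 6.83 in OC.2+ cells, 6.66, 6.73 and 6.87 in OC.2- cells, and 7.46, 7.66 and 7.93 in adult hepatocytes. The fetal groups overlapped, with a difference of 0.05 ± 0.11 (SE, adjusted p = 0.79) that was -0.033 after cyclic loess. Against adult hepatocytes Pex11a was 1.91-fold lower in OC.2- cells (95% interval 1.61 to 2.26) and 1.84-fold lower in OC.2+ cells (1.56 to 2.18).

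The 3 genes of ketone handling and fuel choice were at least 2-fold lower in each comparison. Bdh1, the mitochondrial enzyme that forms beta-hydroxybutyrate, had log2 intensities of 7.72, 7.39 and 7.60 in OC.2+ cells, 9.48, 9.55 and 9.30 in OC.2- cells, and 10.79, 10.84 and 10.89 in adult hepatocytes. The groups did not overlap. Bdh1 was 3.67-fold lower in OC.2+ cells than in OC.2- cells (95% interval 3.17 to 4.25) and 2.62-fold lower in OC.2- cells than in adult hepatocytes (2.27 to 3.04). Acot12, a cytosolic hydrolase of acetyl-CoA, was 2.87-fold lower in OC.2+ cells than in OC.2- cells and 4.96-fold lower in OC.2- cells than in adult hepatocytes.

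Pdk4, the kinase that shuts off pyruvate dehydrogenase when fat is burned, varied most among the adult preparations. Its log2 intensity was 5.95, 5.72 and 5.94 in OC.2+ cells, 8.04, 8.01 and 7.74 in OC.2- cells, and 9.94, 10.49 and 10.91 in adult hepatocytes. The adult SD of 0.48 was the largest of any of the 33 genes in any group, and the groups still did not overlap. Pdk4 was 4.18-fold lower in OC.2+ cells than in OC.2- cells (95% interval 3.15 to 5.53, adjusted p = 1.2e-06) and 5.72-fold lower in OC.2- cells than in adult hepatocytes (4.32 to 7.58, adjusted p = 1.8e-07). With Acadsb and Decr1 it was 1 of the 3 genes whose mean in OC.2+ cells fell below the median of the whole table (log2 6.42), so folds against OC.2+ cells may be understated for these.

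Promoter sequences are shown for the gene with the largest difference between the fetal groups, Fabp1, and for that with the largest difference between OC.2- cells and adult hepatocytes, Cpt1a. Acadvl is shown as well, the only one of the genes searched that held the hexamer described below 2 times. The sequences were taken from RefSeq on assembly GRCr8. They run from 250 bases before to 50 after the annotated start, 5′ to 3′ on the gene's strand. Capitals mark the hexamer AGGTCA, the half-site of many nuclear receptors, or a direct repeat AGGNCANAGGNCA, the arrangement that PPAR and HNF4 proteins are known to bind, on either strand.
Fabp1 promoter (chr4:104749090-104749389, plus strand): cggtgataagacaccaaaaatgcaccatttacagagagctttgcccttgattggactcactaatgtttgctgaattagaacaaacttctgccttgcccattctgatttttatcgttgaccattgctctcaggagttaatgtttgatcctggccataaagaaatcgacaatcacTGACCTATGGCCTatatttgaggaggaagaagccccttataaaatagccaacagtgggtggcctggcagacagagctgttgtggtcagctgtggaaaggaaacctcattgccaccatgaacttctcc
Cpt1a promoter (chr1:209995910-209996209, plus strand): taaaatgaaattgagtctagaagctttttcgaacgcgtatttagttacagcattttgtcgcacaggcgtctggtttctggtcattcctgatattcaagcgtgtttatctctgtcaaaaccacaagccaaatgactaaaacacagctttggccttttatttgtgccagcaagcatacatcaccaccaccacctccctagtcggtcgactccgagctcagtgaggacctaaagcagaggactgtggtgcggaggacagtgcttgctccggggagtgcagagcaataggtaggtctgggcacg
Acadvl promoter (chr10:55236656-55236955, minus strand): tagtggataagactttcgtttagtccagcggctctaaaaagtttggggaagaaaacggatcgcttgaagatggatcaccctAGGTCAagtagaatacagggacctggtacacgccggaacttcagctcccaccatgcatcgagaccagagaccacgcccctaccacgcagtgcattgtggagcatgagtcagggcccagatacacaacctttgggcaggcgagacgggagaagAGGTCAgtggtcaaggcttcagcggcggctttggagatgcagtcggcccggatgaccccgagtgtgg
Of the 33 measured genes, 29 had a promoter in the table, and 8 of these (27.6%) held the hexamer, against 13.4% of 12531 promoters of genes on the array and 16.2% of all 33469 promoters. The 8 were Fabp1, Acadvl, Hadhb, Echs1, Eci1, Eci2, Hsd17b4 and Acot12, and only Acadvl held it 2 times. The direct repeat was found in Fabp1 alone (3.45% of the 29, against 0.335% of array promoters), at position -77 from the transcription start and on the opposite strand, and the hexamer of Fabp1 lies within it. In the window printed for Cpt1a neither pattern was found. A match of letters does not show that a protein binds there.

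Between OC.2- cells and adult hepatocytes, Ppara and its coactivator differed in the direction opposite to most of the enzymes. Ppara had log2 intensities of 7.31, 7.00 and 7.27 in OC.2+ cells, 9.83, 10.02 and 9.60 in OC.2- cells, and 9.18, 8.88 and 8.78 in adult hepatocytes. It was 1.83-fold higher in OC.2- cells than in adult hepatocytes (adjusted p = 0.00012) and 6.15-fold lower in OC.2+ cells than in OC.2- cells (adjusted p = 4.6e-09). Ppargc1a, a coactivator of Ppara and of mitochondrial genes, was also highest in OC.2- cells, 2.05-fold above adult hepatocytes (adjusted p = 1.5e-05), with OC.2+ cells 3.54-fold below OC.2- cells. Its log2 intensity was 5.06 to 5.20 in OC.2+ cells, 6.79 to 7.12 in OC.2- cells and 5.64 to 6.10 in adult hepatocytes, so that only OC.2- cells exceeded the array medians. Hnf4a, a transcription factor of hepatocyte identity, was 6.06-fold lower in OC.2+ cells than in OC.2- cells and 2.20-fold lower in OC.2- cells than in adult hepatocytes.

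**Figure D4:**
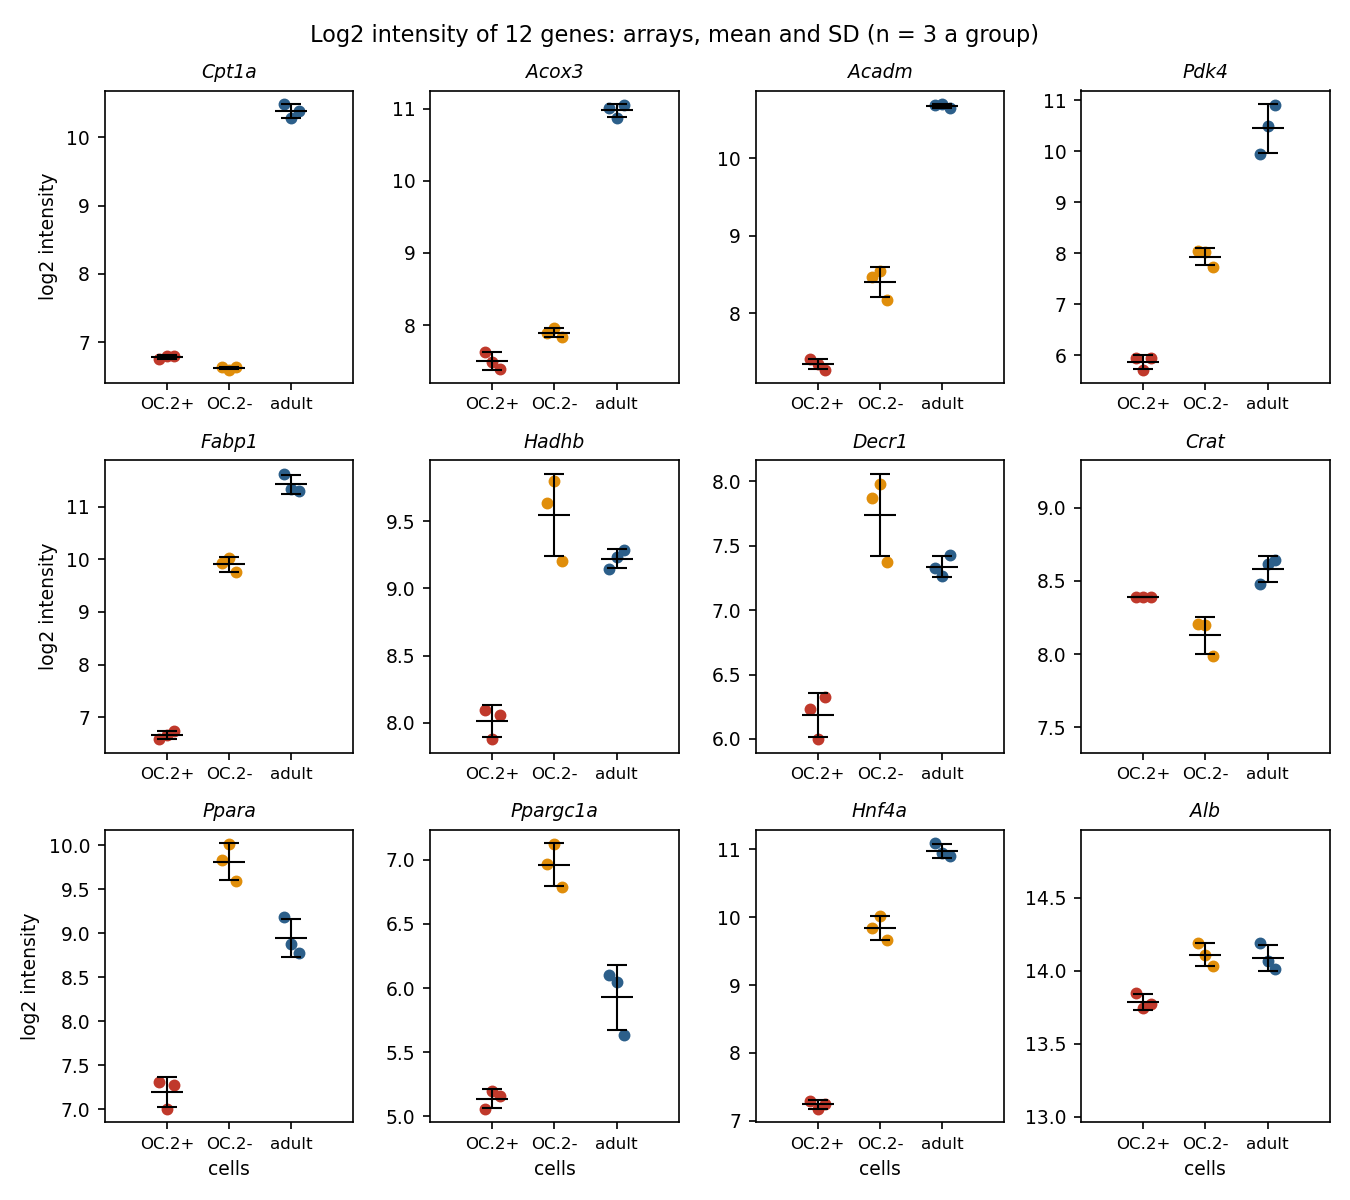
Log2 intensity of 8 oxidation and ketone genes, 3 regulators and albumin on each array (points), with the mean and SD of the 3 arrays (bars), in OC.2+ cells, OC.2- cells and adult hepatocytes; axes do not start at 0 and differ between genes. Ppara and Ppargc1a were highest in OC.2- cells, whereas Cpt1a, Acox3, Acadm, Pdk4 and Fabp1 were highest in adult hepatocytes.

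Of 22 measured regulators of lipid metabolism, 9 were lower and 3 higher in OC.2+ cells than in OC.2- cells (median log2 difference -0.22), and 14 were lower and 3 higher in OC.2- cells than in adult hepatocytes (median -0.80). The bile acid receptor Nr1h4 was 13.6-fold lower in OC.2+ cells than in adult hepatocytes, and Nr0b2, a repressor it induces, 7.79-fold lower in OC.2- cells than in adult hepatocytes. The hormone gene Fgf21 was 3.76-fold lower in OC.2- cells than in adult hepatocytes. The OC.2- means of Nr0b2 (log2 5.62) and Fgf21 (5.97) and the OC.2+ mean of Nr1h4 (5.73) lay below the array medians, so these folds may be understated. Among 17 other known PPAR targets, 8 were lower and 1 higher in OC.2+ cells than in OC.2- cells, and 10 were lower and 2 higher in OC.2- cells than in adult hepatocytes. Cyp4a1, a fatty acid omega-hydroxylase, was 11.5-fold lower in OC.2- cells than in adult hepatocytes, and Cyp4a3, its relative, 5.68-fold lower in OC.2+ cells than in OC.2- cells. Ucp2, a mitochondrial carrier that is also abundant in blood cells, went the other way, 9.43-fold higher in OC.2- cells than in adult hepatocytes and 3.72-fold higher in OC.2+ cells than in OC.2- cells.

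The other oxidation genes, 47 measured, included more genes without a call. Between OC.2+ and OC.2- cells 27 were lower and 4 higher (median -0.43), and between OC.2- cells and adult hepatocytes 24 were lower and 7 higher (median -0.33). The branched-chain oxidase Acox2 was 8.08-fold and the very-long-chain acyl-CoA synthetase Slc27a2 7.74-fold lower in OC.2+ cells than in OC.2- cells. Slc27a5, the bile acyl-CoA synthetase, was 14.01-fold and the racemase Amacr 7.56-fold lower in OC.2- cells than in adult hepatocytes. The pyruvate dehydrogenase kinase Pdk3 was higher at each step, 3.51-fold in OC.2+ against OC.2- cells and 3.16-fold in OC.2- cells against adult hepatocytes, where its mean of log2 4.90 lay below the array medians and the fold may be understated. Cd36, a fatty acid transporter also found on blood cells, was 3.40-fold higher in OC.2+ cells than in OC.2- cells, and Fabp5, a fatty acid binding protein of many tissues, 7.05-fold higher in OC.2- cells than in adult hepatocytes.

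A few relatives of the listed enzymes were chosen after their values were seen. Cpt1b, the muscle form of Cpt1a, was 1.71-fold higher in OC.2- cells than in adult hepatocytes, at log2 intensities of 7.01 to 7.19 in OC.2- cells and 6.23 to 6.52 in adult hepatocytes. Pdk2, a kinase related to Pdk4, was 6.78-fold lower in OC.2- cells than in adult hepatocytes. Acat1, the mitochondrial thiolase that begins ketone body formation, differed by 0.05 ± 0.11 (SE, adjusted p = 0.75) between OC.2- cells and adult hepatocytes and was 4.44-fold lower in OC.2+ cells than in OC.2- cells.

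Other mitochondrial and peroxisomal lists serve as a comparison, without a test between lists. The 48 measured respiratory chain genes had a median log2 difference of -0.31 in OC.2+ against OC.2- cells (26 lower, 0 higher), -0.13 in OC.2- cells against adult hepatocytes (19 lower, 2 higher) and -0.47 in OC.2+ cells against adult hepatocytes (37 lower, 1 higher). Below those medians lay 30, 31 and 32 of the 33 oxidation and ketone genes. For 18 genes of a citrate cycle list the medians were -0.38, -0.28 and -0.55. This list also held genes of pyruvate entry, and Sdha and Sdhb were in the respiratory chain list too. For 16 genes of peroxisome assembly the medians were -0.52, -0.67 and -1.19. In the citrate cycle list Cs, the citrate synthase gene, was 2.47-fold higher in OC.2+ cells than in OC.2- cells. The pyruvate carboxylase gene Pc, one of the pyruvate entry genes, was 3.77-fold lower. The peroxisomal catalase gene Cat was 2.03-fold lower in OC.2+ cells than in OC.2- cells and 2.64-fold lower in OC.2- cells than in adult hepatocytes.

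The 14 hepatocyte markers had a median log2 difference of -2.45 in OC.2+ against OC.2- cells, with all 14 lower, and 2 of the 33 oxidation and ketone genes, Fabp1 and Hadh, lay below that median. Between OC.2+ cells and adult hepatocytes the marker median was -2.37, with all 14 lower, and 20 of the 33 genes lay below it. The median of the 33 genes there was -2.64. Between OC.2- cells and adult hepatocytes the marker median was -0.14, with 6 lower, 1 higher and 7 not called, and 30 of the 33 genes lay below it. Albumin, at log2 intensities of 13.74 to 13.85 in OC.2+ cells, 14.03 to 14.19 in OC.2- cells and 14.01 to 14.19 in adult hepatocytes, differed by -0.32 in OC.2+ against OC.2- cells, where the other 13 markers differed by -0.99 to -2.97. Saturation was not tested for albumin or other bright markers, so small differences in these may be understated. Hepatocyte content was not measured. Among the bright markers, Tf had means of log2 13.60 in OC.2- cells and 13.74 in adult hepatocytes. Hnf4a, the dimmest of the 14 markers in these 2 groups (9.84 and 10.98), had the lowest difference between them, -1.14. Apoa1 (12.93 and 12.24) had the highest, 0.69. No test of one list against the other was made. Erythroid markers went the other way from the oxidation genes in that step, with 15 of 15 measured genes higher in OC.2- cells than in adult hepatocytes (median 2.50). So did endothelial markers (8 of 8 higher, median 1.80), mesenchymal markers (11 of 12 higher, median 0.95) and macrophage markers (8 of 12 higher, median 0.89). The part of these markers in the lower oxidation genes was not tested.

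**Figure D5:**
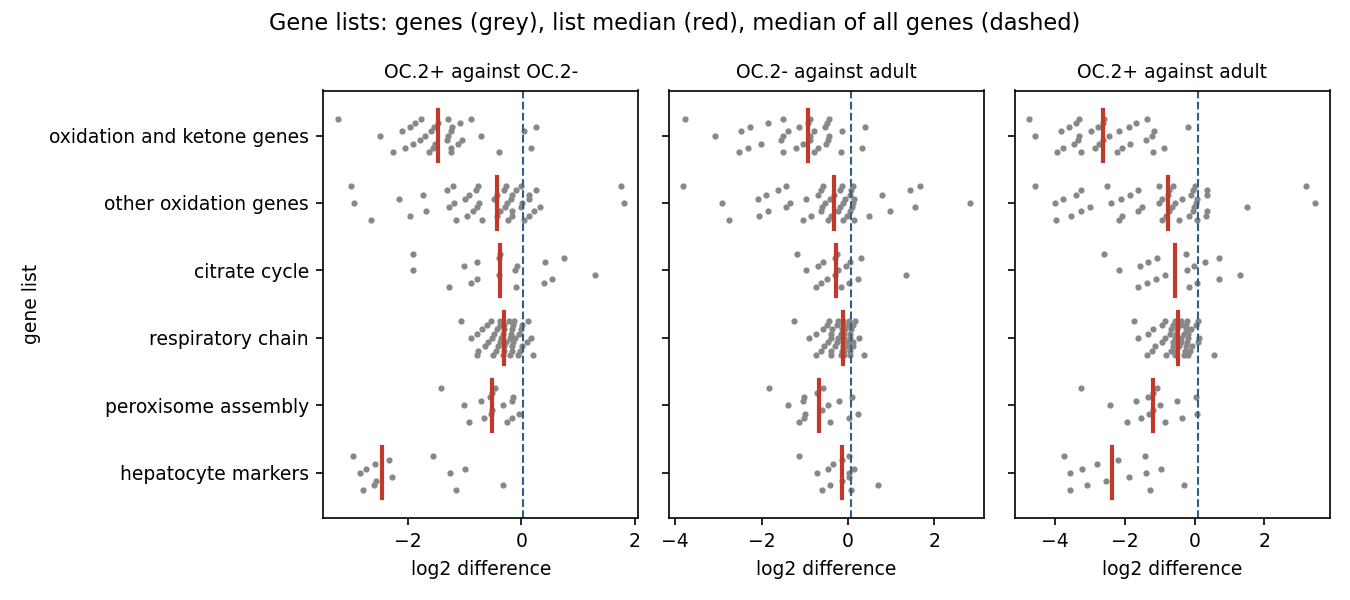
Log2 differences of single genes (grey points) in 6 gene lists, with list medians (red bars) and the median of all 14497 genes (dashed line), for the 3 comparisons. Between OC.2+ and OC.2- cells the hepatocyte markers had the lowest median of these lists (-2.45) and the oxidation and ketone genes the next (-1.48). Between OC.2- cells and adult hepatocytes the oxidation and ketone genes had the lowest median (-0.93) and the hepatocyte markers were at -0.14.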

How the data were processed

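Total RNA of freshly isolated cells was hybridised to 9 arrays, 3 per group, 1 per preparation. The authors deposited linear intensities, 1 per probe set and array. The submitters' processing notes name Partek 6.6 and RMA, without role or order. RMA can compress differences of dim probe sets. No genome build or annotation version is stated in those notes or the labels. Of 28826 rows, 15209 had 1 gene symbol in the platform annotation, 306 several and 13311 none. A gene was read from its row with the highest mean, giving 14497 genes, with no filter on dim genes; 14490 symbols were found in RefSeq (GRCr8).

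Log2 values were fitted with limma 3.58.1 (R 4.3.3), lmFit and eBayes on group means over all 9 arrays with 6 residual degrees of freedom, 2-sided, with Benjamini-Hochberg adjustment over all genes and calls at adjusted p under 0.05. The median SE of a log2 difference was 0.095, and the number of arrays limits the precision. The fit was tested on simulated data. All measured members were named, and from other lists at most the 2 lowest and 2 highest called genes whose arrays did not overlap, plus Ppara, Ppargc1a, Hnf4a and Alb. Members and lists were chosen with earlier results of these data known. Replicate numbers were not used to pair the arrays, and whether same-numbered preparations came from the same animals was not tested. Alternatives covered scaling, a dim-gene filter, row choice, the variance model, the arrays fitted, a replicate block, a 2-fold threshold and leaving out each array.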

Additional observations from a re-analysis of the deposited data

How the results depend on the processing

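Over the alternatives tried, counts of lower genes ranged from 27 to 30 for OC.2+ against OC.2- cells and from 31 to 33 for OC.2+ cells against adult hepatocytes. In OC.2- against adult cells the count was 28 to 31, but 16 with a 2-fold threshold. Leaving out each array in turn gave 30, 29 and 32 to 33 lower genes in OC.2+ against OC.2-, OC.2- against adult and OC.2+ against adult. The counts of higher genes, 1 each in the first and second of these comparisons, were less stable. Without 1 array they ranged from 0 to 1 for OC.2+ against OC.2- and from 0 to 2 for OC.2- against adult. For OC.2- against adult the count was 2 after quantile normalization and with dim genes removed, and 0 after median centring, with all rows tested, with the 2 groups fitted alone, with the replicate block and with the 2-fold threshold. After cyclic loess the 1 higher gene in OC.2- against adult was Hadhb, not Decr1. For OC.2+ against OC.2- the count was 0 after cyclic loess and with the 2-fold threshold. The replicate block left 30, 29 and 32 lower genes. Same-numbered arrays correlated in their deviations from group means at -0.23 to 0.11. Among single-gene values 1751 kept their direction and side of the threshold, 15 lost and 12 gained a call, and 4 turned sign, none called as deposited: after quantile normalization Hadha (0.11) and Etfa (0.025) in OC.2- against adult and Crat (0.0082) in OC.2+ against adult, and after cyclic loess Pex11a (-0.033) in OC.2+ against OC.2-. The median of all genes moved with the scaling, from 0.07 to -0.06 after median centring for OC.2- against adult, and from 0.11 to -0.03 for OC.2+ against adult. Higher genes were 53.1% of all calls for OC.2- against adult and 34.6% after median centring or 42.5% after cyclic loess. For OC.2+ against adult they were 57.8%, and 42.5% and 42.2% under the same scalings. Without a detection call, levels near or below the array medians limit what folds can show, as for Cpt1a, Pex11a, Nr0b2, Fgf21, Pdk3 and the dim OC.2+ values.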
